A study of Homo sapiens with 39 samples.

Results

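In the whole-genome knockout screen of MED12-deficient A375 melanoma cells, 236 guide RNAs disappeared completely when the cells were grown for 14 days without drug. A guide was taken as lost when its raw read count averaged 200 or more over the 3 libraries made at day 0 and was 0 in each of the 3 libraries grown in DMSO, the solvent control, to day 14. Of 77441 guides in the library, 72908 reached the day-0 minimum, and the 236 lost guides were 0.324% of these. They were directed at 226 target genes. Lost guides numbered 1 for 216 of these genes and 2 for the other 10, and no gene had 3 or more. Of the 10 genes, 9 are described by name, namely CCND1, ELOB, GEMIN6, GPN2, HSD17B10, RAD9A, RPE, RPRD1B and SOD2.

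A375 is an established human melanoma cell line that grows through mutant BRAF, and vemurafenib inhibits that kinase. All cells of this screen carried a knockout of MED12, a subunit of the Mediator complex that connects transcription factors to RNA polymerase II. Cells with the whole-genome library were sampled at day 0, at days 8 and 14 in DMSO, and at days 8 and 14 in 2 µM vemurafenib, with 3 libraries in each of these 5 groups. A second, epigenetic library was screened in MED12 knockout cells with the same 5 groups (15 libraries) and in MED23 knockout cells at day 0 and at day 14 in DMSO or 1 µM vemurafenib (9 libraries). MED23 is another Mediator subunit. The labels do not say whether a knockout line is 1 clone or whether replicates were separate cultures, so p-values measure only the spread between these libraries. In MED12 knockout cells libraries with the same replicate number deviated together from day 0 to day 14 and in both arms. Cells without a Mediator knockout are not analysed here, so growth effects of a guide and of its combination with the knockout cannot be told apart.

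In a pooled screen each cell carries a guide that directs Cas9 to cut 1 gene, and the guide's share of the sequenced DNA follows the share of the cells that carry it. Guides against genes needed for growth or survival fade from the population as their cells divide more slowly or die, whereas guides that cut a neutral site persist. Guides of 1 gene differ in how well they cut, and a guide carried by few cells can also vanish through the random losses of repeated passaging. Guides are named here by target gene and number, as in the deposited tables. Their sequences are not printed because they are not among the data used here.

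The whole-genome libraries held 47766947 to 87591804 reads each, and those of the DMSO day-14 group 56407530 to 73231680. Most genes had 4 guides, and 1000 further guides had no target in the genome. Levels were compared as the percentage of the day-0 level left, from the reads of a group's 3 libraries together after scaling by edgeR's TMM factors. For a guide not chosen for its zeros, 0 reads in all 3 libraries leave up to 3 reads over the group possible. This limit is 0.0197 CPM (reads divided by scaled library size). The lost guides' day-0 levels were 83.2-fold to 311-fold above that limit, with a median of 111-fold. The rule fixed both sides of these ratios, and the lowest one follows from its day-0 minimum. Because the lost guides were picked for having 0 reads, the limit may be too low for them. The ratios therefore do not test the loss. They cover counting error only, since amplified reads without molecular identifiers are not independent molecules.

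The rule mostly reached guides that were scarce at the start. The lost guides' day-0 means ran from 200.7 to 750.7 reads with a median of 268.5, against a median of 809.7 for all guides above the minimum. Among guides with a day-0 mean of 200 to 400 reads, 203 of 10707 were lost (1.90%). Between 400 and 600 reads 31 of 13397 were lost, between 600 and 800 reads 2 of 11831, and at 800 or more reads 0 of 36973. The lost guides with the highest day-0 means were XRCC3_1 at 750.7 reads, POLE3_2 at 676.7, LCMT1_4 at 588, SOD2_4 at 574.7 and LSM11_4 at 565.3. XRCC3 acts in homologous recombination, POLE3 is an accessory subunit of DNA polymerase epsilon, LCMT1 methylates the phosphatase PP2A, and LSM11 belongs to the U7 particle that processes histone messages.

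Values near both limits show how the rule divides a continuous range. Just above the day-0 minimum stood SMC4_1 and TBCD_4 at 200.7 reads and NME8_1, HSD17B10_3 and SNAPC4_1 at 201.7. Just below it, also with 0 reads at day 14 in DMSO, stood ANAPC1_3 at 198.3, NGLY1_4 at 198.7, QRSL1_2 at 199, CCNH_3 at 199.3 and PCNP_1 at 199.7. A single read over the 3 DMSO libraries kept out 113 guides that met the minimum. The 5 most abundant of these at day 0 were ADAT2_2 at 1263 reads, CENPO_3 at 1116, GNB1L_4 at 1025, ITPA_1 at 743.3 and GEMIN7_2 at 683.

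Each DMSO day-14 library held many zeros of its own. Of the 72908 guides above the minimum, 3306, 4067 and 3420 had 0 reads in libraries 1, 2 and 3. Exactly 1 library was at 0 for 7149 guides, exactly 2 for 1468 and all 3 for 236. Without DMSO library 1, 2 or 3 in turn, 783, 654 and 739 guides would have met the rule, and 46, 37 and 40 genes would have had 2 or more of them. The number of lost guides and the list of 10 genes therefore rest on all 3 libraries together.

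None of the guides expected to be neutral was lost. Of 990 untargeted guides above the day-0 minimum 0 were lost, which allows a share of up to 0.303%. Of 1425 guides against 374 olfactory receptor genes, which encode odour receptors of the nose, 0 were lost, which allows up to 0.211%. Most of these guides started high. Only 10 untargeted guides and 163 olfactory receptor guides lay in the range of 200 to 400 reads, where most of the losses fell.

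CCND1 encodes cyclin D1, which activates CDK4 and CDK6 to drive cells from G1 into S phase and is switched on by BRAF and ERK signalling. CCND1_2 had 410, 270 and 361 reads in the 3 day-0 libraries, 23, 0 and 24 at day 8 in DMSO, 83, 28 and 26 at day 8 in vemurafenib and 21, 0 and 0 at day 14 in vemurafenib. CCND1_4 had 415, 156 and 201 reads at day 0, 14, 9 and 0 at day 8 in DMSO, 138, 8 and 9 at day 8 in vemurafenib, and 17, 0 and 1 at day 14 in vemurafenib. Both guides were already below their day-0 counts in every day-8 library, and the few vemurafenib reads left at day 14 lay almost wholly in library 1. The gene's other guides diverged from each other. CCND1_3 went from 251, 281 and 104 reads at day 0 to 49, 8 and 0 at day 14 in DMSO. CCND1_1 went from 567, 867 and 1007 to 8, 34 and 2009 in DMSO and to 0, 19 and 4857 in vemurafenib. It was low in libraries 1 and 2 and above its day-0 count in library 3 of both arms.

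RAD9A is part of the 9-1-1 clamp that loads onto damaged DNA and helps activate the checkpoint kinase ATR. RAD9A_1 had 117, 279 and 289 reads at day 0, 0, 6 and 0 at day 8 in DMSO, 0, 2 and 0 at day 8 in vemurafenib, and 0 in all vemurafenib libraries at day 14. RAD9A_2 had 242, 303 and 147 reads at day 0, 37, 18 and 0 at day 8 in DMSO, 33, 10 and 11 at day 8 in vemurafenib, and again 0 throughout at day 14. RAD9A_4 was also at 0 in every day-14 library of both arms, but its 151, 64 and 220 reads at day 0 fell short of the minimum. RAD9A_3 held 0, 22 and 0 reads at day 14 in DMSO and 0, 14 and 0 in vemurafenib, from 182, 267 and 169 at day 0. No guide of the gene thus had more than 22 reads in any day-14 library, with or without drug.

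Of the 10 genes, 3 act in transcription. GPN2 is a GTPase of the family that assembles RNA polymerase II and brings it into the nucleus. GPN2_2 had 320, 203 and 261 reads at day 0, 0, 13 and 12 at day 8 in DMSO, 70, 0 and 6 at day 8 in vemurafenib, and 9, 0 and 0 at day 14 in vemurafenib. GPN2_3 had 187, 167 and 309 reads at day 0, 0, 3 and 0 at day 8 in DMSO, 0, 23 and 0 at day 8 in vemurafenib, and 1, 0 and 0 at day 14 in vemurafenib. GPN2_1 fell short of the rule with 9, 0 and 1 reads at day 14 in DMSO, from 425, 321 and 245. GPN2_4 started at only 88, 56 and 101 reads and kept a single read in the DMSO libraries at day 14.

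ELOB encodes elongin B, which pairs with elongin C in the elongin transcription factor and in cullin ubiquitin ligases such as the VHL complex. ELOB_2 had 173, 394 and 283 reads at day 0, 10, 0 and 0 at day 8 in DMSO, 0, 15 and 2 at day 8 in vemurafenib, and 0 in all vemurafenib libraries at day 14. ELOB_4 had 267, 320 and 95 reads at day 0, 3, 79 and 2 at day 8 in DMSO, 122, 36 and 6 at day 8 in vemurafenib, and 4, 0 and 0 at day 14 in vemurafenib. ELOB_1 and ELOB_3 had 652, 378 and 351 and 307, 350 and 403 reads at day 0, and ended in DMSO at 0, 0 and 4 and at 4, 0 and 1. Summed over its 4 guides, ELOB averaged 10.9 ± 1.90 CPM at day 0 and 0.0617 ± 0.0564 CPM at day 14 in DMSO (SD, n = 3).

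RPRD1B binds the tail of RNA polymerase II and helps regulate its phosphorylation, and it has been linked to the transcription of cyclin D1. RPRD1B_2 had 715, 395 and 536 reads at day 0, 70, 24 and 33 at day 8 in DMSO, 271, 4 and 92 at day 8 in vemurafenib, and 13, 0 and 0 at day 14 in vemurafenib. RPRD1B_3 had 166, 174 and 355 reads at day 0, 7, 0 and 12 at day 8 in DMSO, 94, 2 and 26 at day 8 in vemurafenib, and 12, 1 and 7 at day 14 in vemurafenib. RPRD1B_3 was the only one of the 20 guides with reads in all 3 vemurafenib libraries at day 14. The other guides kept reads, mostly in library 1. RPRD1B_4 counted 1274, 1292 and 1304 at day 0 and 1971, 43 and 110 at day 14 in DMSO, and RPRD1B_1 went from 167, 215 and 145 to 82, 41 and 0.

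GEMIN6 is a subunit of the SMN complex, which assembles the spliceosomal small nuclear ribonucleoproteins. GEMIN6_1 had 158, 144 and 338 reads at day 0, 3, 0 and 20 at day 8 in DMSO, 7, 0 and 97 at day 8 in vemurafenib, and 0, 0 and 60 at day 14 in vemurafenib. GEMIN6_3 had 253, 395 and 278 reads at day 0, 0, 17 and 56 at day 8 in DMSO, 0, 55 and 85 at day 8 in vemurafenib, and 0, 0 and 25 at day 14 in vemurafenib. For both guides the vemurafenib reads at day 14 lay in library 3 alone, the library with the most reads at day 8 in each arm. GEMIN6_2 ended in DMSO at 123, 12 and 3 reads from 746, 519 and 673, whereas GEMIN6_4 went from 737, 796 and 389 to 439, 1833 and 149.

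HSD17B10 and SOD2 encode mitochondrial proteins. HSD17B10 is a dehydrogenase that also serves in the mitochondrial RNase P, which cuts tRNAs out of mitochondrial transcripts. HSD17B10_2 had 418, 342 and 340 reads at day 0, 29, 0 and 10 at day 8 in DMSO, 24, 0 and 0 at day 8 in vemurafenib, and 0 throughout at day 14 in vemurafenib. HSD17B10_3 had 240, 151 and 214 reads at day 0, 17, 0 and 36 at day 8 in DMSO, 12, 1 and 26 at day 8 in vemurafenib, and 0, 0 and 1 at day 14 in vemurafenib. The gene's remaining guides kept more. HSD17B10_1 went from 1302, 1003 and 1016 reads to 809, 17 and 6 at day 14 in DMSO, and HSD17B10_4 from 479, 553 and 628 to 150, 48 and 1339.

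SOD2 is the manganese superoxide dismutase that removes superoxide in the mitochondrial matrix. SOD2_1 had 328, 203 and 288 reads at day 0, 14, 0 and 4 at day 8 in DMSO, 27, 0 and 0 at day 8 in vemurafenib, and 0 throughout at day 14 in vemurafenib. SOD2_4 had 611, 533 and 580 reads at day 0, 0, 3 and 4 at day 8 in DMSO, 16, 13 and 4 at day 8 in vemurafenib, and 0 throughout at day 14 in vemurafenib. SOD2_4 had the highest day-0 mean of the 20 guides, and by day 8 it was down to 16 reads or fewer in every library of both arms. SOD2_2 ended in DMSO at 2, 0 and 0 reads from 759, 801 and 576, while SOD2_3 kept 259, 42 and 55 of 727, 506 and 377.

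RPE is ribulose-5-phosphate epimerase of the pentose phosphate pathway. RPE_2 had 263, 456 and 306 reads at day 0, 0, 20 and 11 at day 8 in DMSO, 0, 55 and 87 at day 8 in vemurafenib, and 0, 0 and 6 at day 14 in vemurafenib. RPE_3 had 119, 437 and 285 reads at day 0, 0, 23 and 11 at day 8 in DMSO, 3, 19 and 3 at day 8 in vemurafenib, and 1, 0 and 0 at day 14 in vemurafenib. RPE_1 and RPE_4 went from 482, 289 and 342 and from 330, 417 and 488 reads to 0, 37 and 1 and to 0, 18 and 99 at day 14 in DMSO. Library 1 was thus at 0 for all 4 RPE guides.

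Of the 20 further guides of these 10 genes, 16 reached the day-0 minimum. Their median level at day 14 in DMSO was 22.2% of day 0, and 6 of the 16 were under 10%. Over all 226 genes, 577 other guides reached the minimum. Their median level was 66.5%, against 129% for all guides above the minimum when libraries were pooled and 80.5% to 82.0% in single libraries. Of the 577, 74 (12.8%) were under 10%, against 2.82% of all guides above the minimum. All guides with 200 to 400 day-0 reads had a median of 64.8%, with 12.2% under 10%. The comparison was not matched for day-0 abundance, and the part of abundance in it was not tested. The 577 guides were not chosen by the rule, but they were counted in the same libraries that it used.

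By gene, the other guides were low as well for a small group. For 17 of 225 genes with another guide above the minimum (7.56%), the median of the other guides was under 10% of day 0, against 0.718% of 19094 genes of the library. They included ACTR1A, ELOB, GAPDH, GPN2, MARS2, MOCS3, NUBP1, PFN1, PSMD3, RAD9A, RPIA, TBCD, TIMM10, XRCC3, ZBTB17 and ZNF511. Among these, GAPDH is a glycolytic enzyme, PSMD3 a proteasome subunit, TIMM10 a carrier of proteins through the mitochondrial intermembrane space and RPIA a pentose phosphate isomerase. For 143 genes (63.6%) the other guides' median stayed at 50% of day 0 or above, against 92.0% of all genes, and for 73 genes every other guide did. LYPD2, NMUR2, APOL4, MYH15, ZNF764 and GABRA2, named after their values were seen, were in this last set. So were FCF1, NCAPH2, POLA2, STT3B and TAF1, which belong to the gene lists below and were likewise named after their values were seen. The shares of genes were not matched for day-0 abundance or for the number of guides behind each median. Lost guides were left out of these medians, so for GPN2, RAD9A and TIMM10 the median was that of 1 guide.

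Of the 226 genes, 101 belonged to at least 1 of the gene lists used, and 125 to none. Counts are given over guides above the day-0 minimum, where 0.324% of all guides were lost, and then within 200 to 400 day-0 reads, where 1.90% were. No list was tested.

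In the lists on the cell cycle and on DNA, checkpoint and repair kinases with their partners lost 6 of 111 guides (5.41%), and 5 of 38 within the narrower range. These were ATR_3, ATRIP_3, both RAD9A guides, TTI2_4 and XRCC3_1. ATRIP is the partner of ATR, and TTI2 helps fold kinases of the ATR family. Factors of mitosis, the kinetochore and the spindle lost 14 of 555 guides (2.52%), and 11 of 153 in the narrower range. They included the mitotic kinase PLK1, the centromeric histone CENPA with CENPT and CENPW, the survivin gene BIRC5 and the condensin subunits SMC4, NCAPG and NCAPH2. The replication machinery lost 4 of 199 (2.01%), all of them among 63 guides in the narrower range, with guides against CHAF1B, GINS3, POLA2 and WDHD1. The 2 CCND1 guides were the only lost ones of 89 guides against the G1 and S phase engine (2.25%), and of 16 in the narrower range.

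In gene expression, ribosome biogenesis factors lost 14 of 544 guides (2.57%), and 12 of 193 in the narrower range. The targets were DDX10, DIS3, EMG1, FCF1, GNL2, NCL, NOB1, NOL10, RRP12, TAF1B, TBL3, WDR3, WDR43 and WDR46. Spliceosome factors lost 9 of 569 (1.58%), all within the narrower range of 158, among them EFTUD2, SF3B3, SNW1, LSM8 and both GEMIN6 guides. General transcription and elongation factors lost 6 of 344 (1.74%), translation factors 4 of 255 (1.57%) and the ubiquitin and SUMO list 3 of 110 (2.73%). In the narrower range these were 6 of 96, 3 of 70 and 2 of 30. The last list included SAE1 and UBA2, the pair that activates SUMO. Cytosolic ribosomal proteins, classical essential genes, lost FAU_4 and RPL10_4 of 182 guides (1.10%), and the same number of 73 in the narrower range (2.74%). Of all guides in the list 54.8% reached the day-0 minimum, and their median at day 0 was 235 reads.

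In mitochondria, proteins of the mitochondrial ribosome lost 6 of 320 guides (1.88%), mitochondrial translation and RNA factors 5 of 245 (2.04%), and iron-sulfur cluster and import factors 5 of 214 (2.34%). Within 200 to 400 day-0 reads these were 5 of 49, 5 of 42 and 4 of 53. The respiratory chain and ATP synthase list lost 0 of 479 guides and 0 of 76 in the narrower range. The chaperonin list lost 3 of 78 (3.85%) and nucleotide, lipid and one-carbon synthesis 6 of 239 (2.51%), the latter with GUK1, IMPDH2 and PAICS of nucleotide synthesis. In the narrower range these were 3 of 33 and 4 of 44. Secretory traffic lost 7 of 585 (1.20%) and chromatin regulators 3 of 302 (0.993%), with 5.34% and 3.57% lost in the narrower range. The ERK pathway and melanoma lineage lost 0 of 98, and the mTOR list 0 of 81, with 20 and 15 guides in the narrower range. The genes in no list lost 130 of 64001 guides (0.203%), and 110 of 8869 in the narrower range (1.24%).

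Of the remaining lists, the proteasome lost 2 of 142 guides, and cytosolic aminoacyl-tRNA synthetases 1 of 64, glycolysis 1 of 50, message 3' end processing and export 1 of 105, RNA polymerase subunits 1 of 105 and nuclear transport 1 of 188. In the narrower range these were 2 of 39, 1 of 23, 1 of 11, 1 of 28, 1 of 42 and 1 of 49. The V-ATPase lost 0 of 81 and the TCA cycle 0 of 91, with 18 and 12 guides in the narrower range. Subunits of Mediator lost 1 of 116 guides (0.862%), and 0 of 24 in the narrower range. This was MED26_3, against the subunit that recruits elongation factors, with 679, 316 and 421 reads at day 0, 32, 13 and 31 at day 8 in DMSO, 178, 15 and 32 at day 8 in vemurafenib and 7, 0 and 8 at day 14 in vemurafenib, named after its values were seen.

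Guides against MED12, already knocked out in these cells, and against BRAF were examined as reference points, and none was lost. MED12_3 and BRAF_1, with day-0 means of 35.7 and 143.7 reads, were below the minimum and could not meet the rule. The MED12 guides were uneven between libraries. MED12_1 had 834, 961 and 979 reads at day 0 and 2, 2854 and 581 at day 14 in DMSO, and MED12_4 had 366, 329 and 268 and then 1004, 24 and 16. MED12_2 went from 2429, 2798 and 1916 to 1357, 482 and 1123, and MED12_3 from 74, 3 and 30 to 13, 0 and 0. BRAF_1 went from 86, 151 and 194 reads to 0, 8 and 0, BRAF_2 from 200, 301 and 278 to 5, 17 and 122, and BRAF_3 from 745, 869 and 801 to 1082, 371 and 430. Of the guides above the minimum BRAF_4 came closest to the rule, with 21, 0 and 0 reads in the DMSO libraries, from 455, 249 and 372.

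At day 8 in DMSO most lost guides were still detectable. Of the 236 guides, 114 had reads in all 3 libraries, 91 were at 0 in 1 library, 27 in 2 and 4 in all 3. The median count was 15, 16 and 16 reads in libraries 1, 2 and 3. The median level was 9.18% of day 0, with quartiles of 4.04% and 16.8% and a maximum of 48.3%, against a median of 113.9% for all guides above the minimum and 140% for untargeted guides. Scaled by total reads alone, the medians were 6.90% for lost and 85.7% for all guides. Taken library by library, they were 5.97% to 6.20% for lost and 91.8% to 96.4% for all guides. Below 10% of day 0 lay 134 of the 236 (56.8%), against 0.497% of all guides. Among all guides with 200 to 400 day-0 reads the median was 80.8%, and 243 of 10707 (2.27%) lay below 10%. The group of 20 guides had a median of 3.87%.

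The lost guides with the most reads at day 8 in DMSO were MRPS23_4 with 295, 54 and 12, POLE3_2 with 85, 125 and 93, B3GNT2_2 with 34, 162 and 96, TERT_4 with 130, 65 and 90, and NMUR2_2 with 15, 177 and 86. MRPS23 is a protein of the mitochondrial ribosome and TERT the catalytic subunit of telomerase. Their reads were uneven between libraries except for POLE3_2 and TERT_4.

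At day 8 in vemurafenib the lost guides tended to stand higher than in DMSO of the same day, but no single guide passed the test. Their median count was 27.5, 22 and 29 reads in libraries 1, 2 and 3. Their median level was 15.7% of day 0 (quartiles 8.41% and 27.3%), against 112.8% for all guides and 79.9% for those with 200 to 400 day-0 reads. Library by library, the medians were 10.9% to 12.8% for lost and 91.8% to 93.4% for all guides. Of the 236 guides, 162 had reads in all 3 libraries and 1 was at 0 throughout. The median difference between vemurafenib and DMSO was 0.79 on the log2 scale, with quartiles of 0.04 and 1.71, against 0.02 for all guides tested. It was above 0 for 179 of 236 guides. For the 20 guides of the 10 genes the median difference was 1.38, with 15 above 0.

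By edgeR's quasi-likelihood test with Benjamini-Hochberg adjustment, 0 of 236 guides differed at day 8, as did 0 of all 77158 guides tested (percent called 0). At an unadjusted p under 0.05, 4 lost guides were higher in vemurafenib, against 0.0881% of all guides, and 1 was lower, against 0.0181%. With DESeq2 the adjusted count was also 0, with 8 higher and 1 lower at an unadjusted p under 0.05. The 4 higher guides by edgeR were BIRC5_4, EMC1_1, ILF2_4 and ZNF511_3 and the lower one DOLK_1, named after their values were seen.

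Libraries with the same replicate number varied together in this screen, so the day-8 arms were also compared within numbers. The median log2 ratio of vemurafenib to DMSO over the lost guides was 0.67, 0.67 and 0.75 for numbers 1, 2 and 3, a mean of 0.70 ± 0.04 (SD, n = 3), against 0.01, 0.01 and 0.03 over all 77441 guides. Higher in vemurafenib in all 3 numbers were 58 of 236 guides (24.6%), against 13.5% of all guides, and lower in all 3 were 7 (2.97%), against 12.4%. Among the 20 guides, 3 were higher in all 3 numbers and 0 lower, and their median ratios were 1.20, 0.27 and 0.34.

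The rule itself used DMSO libraries, and this moves with the day-8 difference. Deviations from the group means correlated at 0.877 to 0.882 between same-numbered DMSO libraries of days 8 and 14 (3 pairs), and at 0.796 to 0.799 between same-numbered libraries of vemurafenib at day 8 and DMSO at day 14. Guides selected in the opposite way, with a day-0 mean of 200 or more and 0 reads in all vemurafenib day-14 libraries, numbered 333, a set chosen after seeing the data. Their median day-8 difference was -0.15, with levels of 17.4% of day 0 in DMSO and 16.6% in vemurafenib. Within numbers their median ratios were 0.03, 0.19 and -0.02, with 34 guides (10.2%) higher and 42 (12.6%) lower in all 3. Of the 333 guides, 65 were also among the lost guides, so the sets overlap. The part of the selection in the day-8 difference was not tested.

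At day 14 in vemurafenib few reads of the lost guides remained. Of the 236 guides, 65 (27.5%) were at 0 in all 3 libraries, against 333 (0.457%) of all guides above the minimum. Among all guides starting at 200 to 300 and at 300 to 400 day-0 reads, where most lost guides lay, the shares were 4.20% and 1.51%. Without 1 of the 3 vemurafenib libraries in turn, 96 to 100 were at 0. Reads appeared in exactly 1 library for 100 guides, in 2 for 60 and in all 3 for 11. The summed count had a median of 4 reads and a maximum of 248. The median level was 1.77% of day 0, with quartiles of 0% and 7.91%. All guides had a median of 126.7%, and those with 200 to 400 day-0 reads a median of 56.0%. Scaled by total reads alone, the medians were 0.523% for lost and 37.5% for all guides. Library by library, the median was 0% for lost guides in each of the 3 libraries and 68.1%, 68.9% and 70.9% for all guides, so no single library had a median as high as the pooled one. Together the 236 guides made up 0.0958% to 0.0988% of reads in the day-0 libraries, 0.00736% to 0.00797% at day 8 in DMSO, 0.0122% to 0.0139% at day 8 in vemurafenib and 0.00160% to 0.00214% at day 14 in vemurafenib. The zeros in vemurafenib were also more frequent over all guides, with 4844, 5167 and 4589 guides above the minimum at 0 in libraries 1, 2 and 3.

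The largest vemurafenib day-14 counts came from single libraries. The 10 guides with the most reads were NARS_2 (0, 248 and 0 reads), LYPD2_4 (0, 1 and 197), GFM2_2 (0, 171 and 1), NMUR2_2 (4, 116 and 9), SNW1_2 (0, 101 and 11), PSMG2_3 (0, 102 and 0), MFAP1_3 (0, 0 and 84), VPS13D_3 (0, 0 and 82), DNAJB1_4 (79, 2 and 0) and TOMM22_2 (62, 19 and 0). NARS is a cytosolic aminoacyl-tRNA synthetase, SNW1 and MFAP1 are splicing factors, and TOMM22 is a receptor of mitochondrial protein import. Of the 86 guides with 10 or more reads over the 3 libraries, 61 had more than 90% of them in 1 library. Among the 20 guides, 6 had no reads, 11 had reads in 1 library, 2 in 2 libraries and 1 in all 3, with at most 60 reads in a library.

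Between day 8 and day 14 in vemurafenib the lost guides had a median log2 difference of -2.84, against 0.15 for all guides, with 17 of 236 above 0. With total-count scaling the median of all guides moved to -1.11 and that of the lost guides to -4.01, so the gap between them was -2.99 with TMM scaling and -2.90 with total counts. By edgeR's quasi-likelihood test with Benjamini-Hochberg adjustment, 0 of the 236 guides passed, against 1 lower guide among all 77158 tested (0.0013%) and 0 higher. At an unadjusted p under 0.05, 66 lost guides (28.0%) were lower, against 2.24% of all guides, and 0 were higher, against 1.46%. DESeq2 also called 0 after adjustment, with 62 lower at an unadjusted p under 0.05. Within replicate numbers the medians were -2.50, -2.45 and -2.56, against -0.39, -0.33 and -0.30 for all 77441 guides. For the 20 guides the median was -2.83, with 2 lower at an unadjusted p under 0.05. The comparison with all guides was not matched for day-0 abundance. Deviations from the group means correlated at 0.760 to 0.765 between same-numbered day-14 libraries in DMSO, which the rule used, and in vemurafenib. The part of the selection and of low counts in this fall was not tested.

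The epigenetic library, with 10 guides per gene and 16385695 to 28994690 reads a library, held CCND1 alone of the 10 genes and allowed a test in libraries that the rule had not used. Whether its CCND1 guides differ in sequence from those of the whole-genome library is not known here. In MED12 knockout cells CCND1's summed level was 429 ± 21.9 CPM (SD, n = 3) at day 0, 284 ± 65.4 at day 8 in DMSO and 362 ± 69.2 at day 8 in vemurafenib. At day 14 it was 238, 539 and 181 in the 3 DMSO libraries and 427, 823 and 328 in the vemurafenib libraries, so library 2 was above day 0 in both arms. By edgeR's quasi-likelihood test with Benjamini-Hochberg adjustment, 2 of 10 CCND1 guides fell from day 0 to day 14 in DMSO, against 1.14% of all guides. They were CCND1_5 (log2 change -2.62, adjusted p 0.0382) and CCND1_10 (-2.31, adjusted p 0.0417), numbered within that library. With the replicate number as a block 4 of 10 fell, against 7.85% of all guides, and without any 1 of the day-0 or DMSO day-14 libraries 0 did.

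In MED23 knockout cells CCND1's summed level went from 597 ± 16.0 CPM at day 0 to 202 ± 17.0 at day 14 in DMSO (SD, n = 3). The 3 DMSO libraries stood at 186, 200 and 220. In vemurafenib at day 14 the level was 348 ± 37.8. Of its 10 guides 8 fell in DMSO by the same edgeR test, with a median log2 change of -2.58, against 21.8% of all guides. No CCND1 guide rose. The difference between the MED12 and MED23 knockouts was not tested.

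Genes with 1 or more lost guides, a set added after seeing the data, numbered 24 in the epigenetic library, with 240 guides. In MED12 knockout cells 13 of these guides fell and 2 rose, against 1.14% and 1.13% of all guides, and with the replicate block 61 fell and 2 rose, against 7.85% and 4.91%. Without any 1 of the libraries compared, 1 to 5 fell. Their median log2 change was -0.69, against 0.18 for all guides. In MED23 knockout cells 140 fell and 11 rose, against 21.8% and 14.4%, with a median of -1.52 against 0.08.

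By gene in MED23 knockout cells, counts are set against the 21.8% of all guides that fell and the 14.4% that rose. For ACTL6A and SF3B3, which serve in chromatin remodelling and splicing, 9 of 10 guides fell. For CENPA, EFTUD2, EIF3G, HUWE1, MDM4 and TAF1 8 of 10 fell, MDM4 being an inhibitor of p53. ANAPC2 and WDR77 had 7, ATR, CCT3, CHAF1B, POLE3 and YEATS4 6, RPL10 5, and DTL and TERT 3. JADE1 and KMT2A had 1 each, and HDAC2 and UBE3D 0. Of HDAC2 and JADE1 guides 3 each rose. Guides against UBE3D did pass in MED12 knockout cells, where 1 of 10 fell without the replicate block and 6 with it. KMT2A guides likewise went from 1 to 5, as did those of MDM4, TERT and WDR77. ANAPC2, ATR and CENPA went from 1 to 4. TAF1 stayed at 1, and DTL, EFTUD2, HDAC2, JADE1 and RPL10 at 0. The rise with the block was thus not particular to UBE3D and KMT2A. Over all guides the shares were 1.14% without the block and 7.85% with it. When 1 of the libraries compared was left out of the fit without the block, 0 or 1 guide fell for UBE3D and for KMT2A.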

How the data were processed

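Guide RNA read counts were analysed from 15 libraries of the whole-genome screen and 24 of the epigenetic screens, made by PCR from genomic DNA per the labels' protocols. The deposited tables hold raw counts per guide, made by the authors. Per the submitters' processing notes bcl2fastq, HISAT2 and HTSeq were used, with parameters and genome build not given in the sources used here. No column was left unmapped to a sample.

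Members and gene lists were chosen with earlier results of these data known. The rule for named genes took all genes with 2 or more lost guides, and 1 of these is not reported here. Single guides were named at both limits of the rule, by their highest counts in DMSO at day 8 and in vemurafenib at day 14, and for MED12 and BRAF, and other names say where values were seen first. All lost members, or examples, were named in a gene list after their values were seen.

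Counts were tested with edgeR 4.0.16 in R 4.3.3 (TMM, filterByExpr with minimum counts of 10 and 15 in total, quasi-likelihood test, 2-sided). All groups of a table entered 1 fit without a block. P-values were adjusted by Benjamini-Hochberg over all guides tested (77158 of 77441, and 12214 of 12214) at 0.05, with DESeq2 1.42.0 as an alternative. The fit was tested on simulated counts of independent libraries with the same set spread for every guide. That simulation lacked the pairing and the spread of the real libraries, so it does not show the power of the tests here. Changes from day 0 in the whole-genome table were used by the rule and were not tested. Replicate numbers paired the libraries of MED12 knockout cells, since same-numbered libraries' deviations from their group means correlated at 0.500 to 0.882 in the whole-genome table and 0.341 to 0.900 in the epigenetic table. Target symbols were matched to RefSeq names, with 215 of 226 current, 10 older and 1 unmatched. No coordinates are given because the files name no build.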

Additional observations from a re-analysis of the deposited data

How the results depend on the processing

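The number of lost guides, 236, was 590 with a day-0 minimum of 100 reads, 33 with a minimum of 400 (and then 0 genes with 2) and 371 when 1 read per DMSO library was allowed (29 genes with 2). Leaving out 1 library at a time gave 230 to 783. Lost guides at 0 in all vemurafenib day-14 libraries, 65, became 103 when 1 read was allowed, 10 of 33 with the minimum of 400, and 96 to 100 without 1 vemurafenib library. Calls at day 8 and from day 8 to day 14 in vemurafenib were 0 under every alternative run, replicate block included. The fit of only the groups compared tested 190 and 116 of the 236 guides. Relative to all guides, the median day-8 difference ranged from 0.54 to 0.99, and the one from day 8 to day 14 from -3.92 to -2.01.

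In the epigenetic screen of MED12 knockout cells the CCND1 guides that fell, 2, were 4 with the replicate block, 0 with only the groups compared and 0 without 1 library. For the 24 genes the 13 became 61 with the replicate block, 35 with DESeq2, 27 with total-count scaling, 1 with only the groups compared and 1 to 5 without 1 library. The cause was not tested. In MED23 knockout cells the counts were 6 to 8 of 10 CCND1 guides and 111 to 156 of 240. By the labels' numbers these libraries were not all paired. DMSO libraries 1 and 2 correlated at -0.139 and -0.169 with the day-0 library of their own number, and at 0.296 and 0.306 with each other's. DMSO library 3 and all vemurafenib libraries correlated best with their own day-0 number (0.296 to 0.324). This is a hint from the data that 2 numbers are crossed, not from the labels. The replicate block by the labels' numbers, which moved the lower guides from 2665 to 2703, is therefore no check of these counts. The rule was met mainly by guides with few day-0 reads, since 0 of 36973 guides with 800 or more were lost.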
